A study of Homo sapiens with 13 samples.

Results

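In MOLM-13, a human cell line derived from acute myeloid leukemia, 431 of the 9370 deposited PTBP1 peaks (4.60%, 95% Wilson interval 4.19 to 5.04) were PTBP1-only regions at noncoding-only start sites. These regions were selected on the peak calls and the gene annotation. They overlapped none of the 7688 RUNX1 peaks, came within 1 kb of the transcription start site (TSS) of a GENCODE version 44 gene that is not protein-coding, and lay farther than 1 kb from the TSS of every protein-coding gene. They made up 9.05% (8.27 to 9.90) of the 4760 PTBP1 peaks without a RUNX1 peak. PTBP1-only here means that no overlapping RUNX1 peak was called, not that RUNX1 was absent. The paper describes some RUNX1 signal at almost all PTBP1 peaks. The series comprised 13 libraries of MOLM-13 chromatin, for which no treatment or genetic change was named. CUT&Tag, where a transposase is brought to chromatin by an antibody, was performed with antibodies to PTBP1 and RUNX1 (2 libraries each) and with IgG (1 library), and CUT&RUN, where the antibody brings a nuclease instead, with antibodies to PTBP1, RUNX1, H3K27me3 and IgG (2 libraries each). The values below rest on 1 deposited PTBP1 list and 1 deposited RUNX1 list with hg38 coordinates. Neither list carries replicates, so no spread between cultures can be given and each interval covers counting error only.

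PTBP1 is an RNA-binding protein that recognizes pyrimidine-rich stretches of pre-mRNA and regulates splicing, and RUNX1 is a DNA-binding regulator of blood cell genes. Genes that do not encode protein include long noncoding RNAs (lncRNAs), the spliceosomal small nuclear RNAs (snRNAs), the small nucleolar RNAs (snoRNAs) that guide RNA modification, 5S ribosomal RNA, microRNAs (miRNAs) and pseudogenes. Many snoRNAs and miRNAs are processed from the introns of longer host transcripts. The annotated start of such a gene is then the first base of the mature or hairpin RNA rather than a promoter.

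The sequences under 6 summits are shown because they represent the kinds of start described below and the motifs that were counted. Each runs from 50 bases before to 50 bases after the PTBP1 summit on the plus strand of hg38. Capitals mark a GC box (GGGCGG or its complement CCGCCC), a RUNX motif (TGTGGT or TGCGGT on either strand), an ETS core (CCGGAA or TTCCGG) or a run of at least 12 pyrimidines on 1 strand. The U2 window (chr17:43246572-43246672) belongs to the region of highest fold enrichment at an snRNA gene and carries a pyrimidine run. It is centered 758 bases upstream of the annotated start of that gene. The MALAT1 window (chr11:65497587-65497687) and the DANCR window (chr4:52712271-52712371) lie at lncRNA starts and carry 3 and 2 GC boxes. The SNHG16 window (chr17:76557644-76557744), at a snoRNA host gene, carries an ETS core. The RNU5A-1 window (chr15:65296246-65296346) carries a RUNX motif and a pyrimidine run, and the MIR17HG window (chr13:91347526-91347626), at the host gene of the miR-17 cluster, carries a RUNX motif among 3 GC boxes, of which a pair overlaps.
U2: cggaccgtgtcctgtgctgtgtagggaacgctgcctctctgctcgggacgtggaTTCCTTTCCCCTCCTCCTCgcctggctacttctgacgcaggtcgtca
MALAT1: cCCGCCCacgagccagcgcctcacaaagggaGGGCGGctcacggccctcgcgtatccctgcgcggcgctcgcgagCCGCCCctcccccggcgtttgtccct
DANCR: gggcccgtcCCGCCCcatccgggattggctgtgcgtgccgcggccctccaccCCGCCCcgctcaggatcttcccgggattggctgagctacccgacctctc
SNHG16: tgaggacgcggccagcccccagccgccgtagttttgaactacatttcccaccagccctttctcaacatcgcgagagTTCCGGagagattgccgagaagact
RNU5A-1: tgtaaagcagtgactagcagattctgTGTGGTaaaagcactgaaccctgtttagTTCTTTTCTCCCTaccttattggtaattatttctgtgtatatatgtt
MIR17HG: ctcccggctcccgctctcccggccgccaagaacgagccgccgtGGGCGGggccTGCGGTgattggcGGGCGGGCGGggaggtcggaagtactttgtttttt

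The miRNA genes at these regions are illustrated by the mature RNAs of MIR3187, a gene with one of the 5 widest regions, and by pairs that share a seed, the bases 2 to 8 that pair with targets. Of the 72 miRNA names within 1 kb of a region, 65 were found in the RefSeq table (GRCh38.p14), with 104 mature sequences and 96 different seeds. Only 8 seeds belonged to more than 1 of these genes. Among them were the let-7 seed, the seeds of the miR-200 family and the seed shared by miR-130b and miR-301b, which are given with the seed in capitals. These 4 seeds were chosen after the sequences had been seen.
hsa-miR-3187-5p: cCUGGGCAgcguguggcugaagg
hsa-miR-3187-3p: uUGGCCAUggggcugcgcgg
hsa-let-7a-5p: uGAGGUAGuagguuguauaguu
hsa-let-7b-5p: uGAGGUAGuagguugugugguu
hsa-miR-200b-3p: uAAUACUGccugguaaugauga
hsa-miR-200c-3p: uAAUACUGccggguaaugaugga
hsa-miR-141-3p: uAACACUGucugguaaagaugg
hsa-miR-200a-3p: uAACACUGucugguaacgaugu
hsa-miR-130b-3p: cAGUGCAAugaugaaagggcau
hsa-miR-301b-3p: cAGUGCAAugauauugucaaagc

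To determine which noncoding genes lay at these regions, each region was assigned to the noncoding start nearest its summit. A lncRNA start was nearest in 280 of the 431 regions (65.0%, 60.3 to 69.3), a miRNA hairpin in 65 (15.1%, 12.01 to 18.8) and a pseudogene in 37 (8.58%, 6.29 to 11.6). The remainder comprised 17 regions at genes of the provisional class TEC, whose transcripts await experimental support, 11 at snoRNAs, 10 at snRNAs, 8 at genes of the class misc_RNA and 3 at 5S ribosomal RNA genes. More than 1 noncoding start lay within 1 kb of 88 regions (20.4%), and at most 4 did. Counted as genes, 501 of the 42630 annotated noncoding genes, or 1.18%, had such a region at the start, and 5.37% had a PTBP1 peak of any kind there. By class the share with such a region was 3.83% of 1879 miRNA genes, 2.34% of 942 snoRNA genes, 1.80% of 1056 TEC genes, 1.64% of 18866 lncRNA genes, 0.684% of 1901 snRNA genes and 0.335% of 15233 pseudogenes. These shares follow from the rule and the annotation, and genes that lie together share a region, so they were not tested.

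The lncRNAs were mostly unnamed. Of the 309 lncRNA genes with such a region, 198 (64.1%) had only an Ensembl identifier, against 69.5% of all annotated lncRNA genes. Antisense names, given to lncRNAs that overlap a gene on the opposite strand, made up 15.5% against 9.76%, and names of the LINC series 9.71% against 12%. Names given to host genes of small RNAs, those beginning with SNHG or ending in HG, numbered 8 of the 309, or 2.59%, against 0.588% of all lncRNA genes. Host genes under other names, DANCR among them, were not counted in either share. In the 384 PTBP1 peaks that overlapped a RUNX1 peak at equivalent noncoding-only starts, hereafter shared regions, the nearest start was a lncRNA in 79.9% (75.7 to 83.6) and a miRNA in 6.51% (4.45 to 9.43). The corresponding intervals of the PTBP1-only regions were 60.3 to 69.3 and 12.01 to 18.8. This comparison was made after the values were seen and carries no test, and the intervals treat neighbouring regions as independent.

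Fold enrichment at the summit, meaning fragments over background after adding 1 to both, ranged from 4.18 to 73.2 with a median of 10.46 (quartiles 8.72 and 12.8). The summits held a median of 17 fragments, with a lowest value of 11 and a highest of 140, and 302 of the 431 (70.1%) held 20 fragments or fewer. Fold enrichment was 20 or more in 26 regions and 30 or more in 9. Because fragments are whole and the background was 0.720 fragments at most peaks, fold enrichment moves in steps, and equal values at different genes are common. The median was 10.46 at lncRNA, pseudogene and TEC starts, 9.88 at miRNA starts, 8.72 at snoRNA starts, 8.14 at misc_RNA starts and 12.5 at snRNA starts. The selection was related to strength, since the 4760 PTBP1-only peaks had a median of 9.88 against 12.2 in the whole list, and these values are therefore a description. The shared regions had a median of 16.9, the PTBP1-only regions at coding starts 11.05 and those away from starts 9.30.

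**Figure D1:**
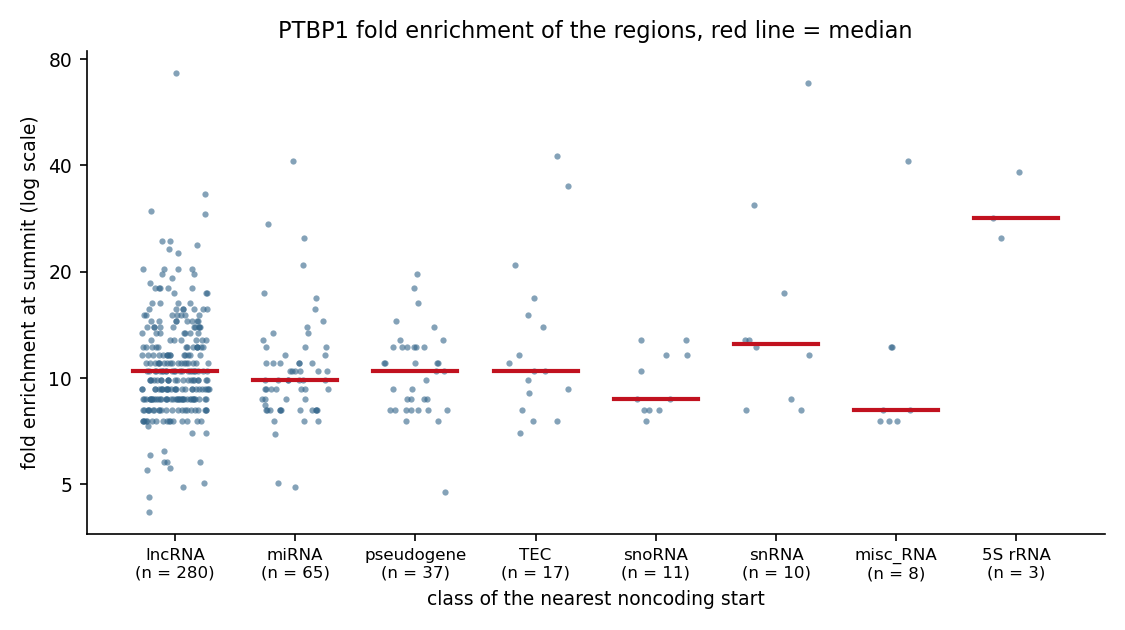
PTBP1 fold enrichment at the summit (log scale) of each of the 431 regions, by the class of the nearest noncoding start, where each point is a region and each red line a median. Most points lie between 7 and 20 in each of the larger classes, and the 2 highest values are 73.2 at a lncRNA and 68.6 at a U2 snRNA gene.

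The strongest region of all lay at chr6:170145456-170154386, over the start of the lncRNA ENSG00000289623 near the end of the long arm of chromosome 6. It spanned 8931 bases, held 125 fragments at the summit and had a fold enrichment of 73.2. The nearest protein-coding start, that of FAM120B, was 144398 bases from the summit, and the nearest RUNX1 peak was 6346 bases away. The lncRNA ENSG00000237899 on chromosome 1 had a region of 5121 bases with a fold enrichment of 33.1, 609 bases from its start. The start of MRPL45P2, annotated as a lncRNA, lay within a region with 29.6 at chr17:47492409-47493275. Among pseudogenes, SERHL on chromosome 22 and ENSG00000279783 on chromosome 21 had the highest values, at 19.8 and 18.02. On chromosome 7 the region at ENSG00000273230 was 7329 bases wide but reached a fold enrichment of only 14.0, so width and height did not go together there.

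Widths had quartiles of 369.5 and 843.5 bases around a median of 580, and 26 regions were wider than 2 kb. The widest covered 12361 bases at chr11:65437417-65449777, had a fold enrichment of 41.3 and contained the hairpin of MIR612 in the 3-prime part of NEAT1, the architectural lncRNA of paraspeckles. A second region inside NEAT1, at chr11:65424595-65429066, also reached 41.3. It was placed at the misc_RNA models ENSG00000277599 and ENSG00000278050, which lie within NEAT1, the assigned start being 635 bases from the region. Together, 5 PTBP1 peaks covered 91.6% of the NEAT1 gene with fold enrichments of 29.1 to 88.4. Of these, 4 overlapped no RUNX1 peak, and 2 met the rule. The start of NEAT1 itself lay in both a PTBP1 and a RUNX1 peak and was therefore not part of the set.

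**Figure D2:**
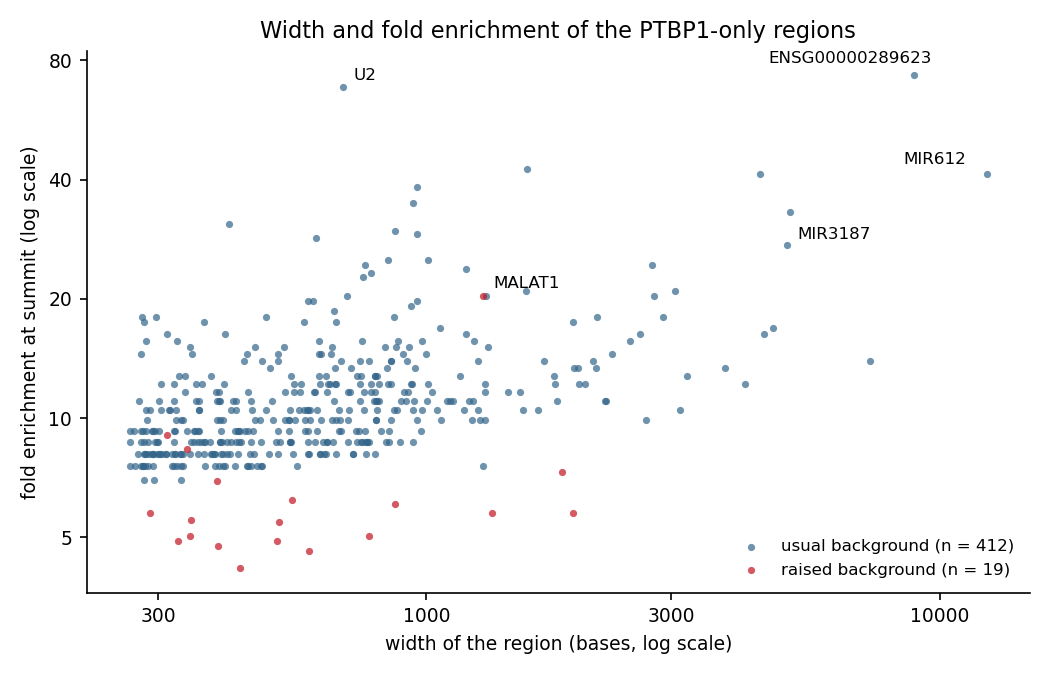
Width in bases and fold enrichment at the summit of the 431 regions, both on log scales, with the 19 regions on a raised background in red. The region at MIR612 is the widest, at 12361 bases, and MALAT1 stands highest among the regions on a raised background, with a fold enrichment of 20.3.

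Downstream of NEAT1, MALAT1 encodes an abundant nuclear lncRNA that associates with splicing speckles. Its start lay within the region at chr11:65497316-65498602, with the summit 3 bases upstream. The summit held 140 fragments, the most of any of the 431, but on a background of 5.93 fragments, which gave a fold enrichment of 20.3. The nearest RUNX1 peak was 8309 bases away, still within the MALAT1 gene. The gene held 2 PTBP1 peaks, and the other, with a fold enrichment of 46.5, overlapped a RUNX1 peak. Between the MIR612 and MALAT1 regions were 5 others, with fold enrichments from 8.72 to 29.1, so that 8 of the 431 regions lay within 74008 bases (chr11:65424595-65498602), the largest group formed when regions at most 50 kb apart were joined. A background above 1.5 times the usual level occurred at 19 regions (4.41%), including MALAT1 and MIR142HG, the host gene of the blood-cell miRNA miR-142. At MIR142HG, 93 fragments on a background of 11.9 gave a fold enrichment of 7.31. The part of the raised background in these values was not tested.

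To examine genes of the splicing machinery, 25 genes for spliceosomal and U7 snRNAs were considered. A PTBP1-only region lay at 6 of them, or 24%, against 1.18% of all noncoding genes. They were RNU4-1 and RNU4-2, which lie side by side and share the region at chr12:120290611-120292537 with a fold enrichment of 17.4, RNU6ATAC with 12.8, RNU1-2 with 12.2, RNU5A-1 with 11.6 and RNU5F-1 with 8.14. The U4 genes had 29 fragments at the summit, RNU5F-1 only 13, close to the lowest of the set. At RNU6ATAC, which belongs to the minor spliceosome, the region was a second peak 890 bases from the start, and a stronger PTBP1 peak near the same start, with a fold enrichment of 52.3, overlapped a RUNX1 peak. Of the other 19 genes, 3 had only a shared region, 5 had a PTBP1 peak that was also near a coding start and 11 had no PTBP1 peak, so that any PTBP1 peak was at 56%, against 5.37% of all noncoding genes. Because snRNA genes exist in near-identical copies, reads from some of them may not have passed the mapping filter, and the effect on these counts was not tested.

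The highest values at snRNA genes were not at a listed gene but at unnumbered copies annotated as U2 on chromosome 17. The region at chr17:43245991-43246678, 127 bases from the start of U2 copy ENSG00000274432.1, had 117 fragments and a fold enrichment of 68.6. The region at chr17:43272534-43272945, 347 bases from the start of copy ENSG00000278774.1, had 52 fragments and 30.8. The summits were 758 bases upstream of the first start and 568 bases downstream of the second. Both summits lay within the CCDC200 gene but outside its canonical transcript. Neither 101-base summit window had a second exact copy on the assembled chromosomes. For the 431 regions this held for 429 windows. The other 2, at a lncRNA on chromosome X and at SNORA64 on chromosome 16, each had 1 further exact copy. Windows can still differ from a paralog by only a few bases. Copies missing from the assembly could not be counted, and their part in the U2 values was not tested.

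Genes of the 5S ribosomal RNA array on chromosome 1, which RNA polymerase III transcribes, carried 3 regions. Fold enrichment was 38.4 at RNA5S12 (chr1:228634912-228635869), 28.5 at RNA5S13 and 24.998 at RNA5S6, with 65, 48 and 42 fragments. All 3 exceeded the upper quartile of the set, and with the pseudogene RNA5SP18, at 12.2, they formed a group within 27695 bases. Copies of the array missing from the assembly could not be counted, and their part in these values was not tested. The TEC genes ENSG00000279602 on chromosome 17 and ENSG00000286032 on chromosome 21 had 42.4 and 34.9. The region of the latter, chr21:8464729-8465671, had its summit 2056155 bases from the nearest coding start. Copies of it missing from the assembly could not be counted either, and their part in its value was not tested. In a list of 14 other small structural RNA genes, among them RN7SK and the Y, vault and signal recognition particle RNAs, no gene had a PTBP1-only region. Against 1.18% of all noncoding genes, a list of 14 is too short to read this as a lack. A PTBP1 peak of another class was at 5 of the 14 (35.7%), against any PTBP1 peak at 5.37% of all noncoding genes. Unlisted Y RNA copies did occur among the 8 misc_RNA regions, the highest with a fold enrichment of 12.2 on chromosome 14.

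snoRNA host genes were the next group, since their introns carry the RNAs that guide ribosomal RNA modification. Of 34 annotated host genes, all lncRNAs, 6 (17.6%) had a PTBP1-only region, against 1.18% of all noncoding and 1.64% of lncRNA genes. Any PTBP1 peak was at 47.1%, against 5.37% of all noncoding and 9.5% of lncRNA genes. SNHG25, on chromosome 17, had the highest value at 23.8 with 40 fragments, and its summit was 92 bases upstream of the start. SNHG32 and DANCR had 14.0 each, SNHG16 had 12.8, SNHG15 had 12.2 and SNHG12 had 11.6. The summit lay 4 bases upstream of the DANCR start. At SNHG16 the nearest start belonged to the lncRNA ENSG00000267546, 11 bases from the summit. The nearest RUNX1 peak was 1974821 bases from the DANCR region but only 1089 bases from the SNHG32 region. A further 10 host genes had a PTBP1 peak that was shared or also near a coding start, and 18 had none. At the snoRNA genes themselves, the highest regions were those of SNORA64, with its summit in exon 5 of RPS2, and of SNORA17A, each with 12.8.

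A list of 25 lncRNA genes, made up of miRNA host genes and DLEU1, had a PTBP1-only region at 3 (12%), against 1.18% of all noncoding and 1.64% of lncRNA genes. Any PTBP1 peak was at 36%, against 5.37% of all noncoding and 9.5% of lncRNA genes. MIR17HG, the host of the miR-17 cluster, had 2 regions on either side of a gap, at chr13:91347356-91347642 with a fold enrichment of 8.72 and at chr13:91348503-91349032 with 9.88, and RUNX1 peaks lay 131 and 134 bases from them. DLEU1 also had 2, both 8.14. It counts among the 3 only because it was listed with its neighbour DLEU2, which hosts the miR-15a and miR-16-1 hairpins and had a shared region. At MIR142HG the RUNX1 peak was 1470 bases away. For MIR17HG the absence of an overlap thus rests on peak edges 131 and 134 bases apart. A list of 45 lncRNA genes studied in blood cells had a PTBP1-only region at 2, MALAT1 and LINC00899 (12.2), or 4.44%, against 1.18% of all noncoding and 1.64% of lncRNA genes. In this list any PTBP1 peak was at 17.8%, against 5.37% of all noncoding and 9.5% of lncRNA genes.

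**Figure D3:**
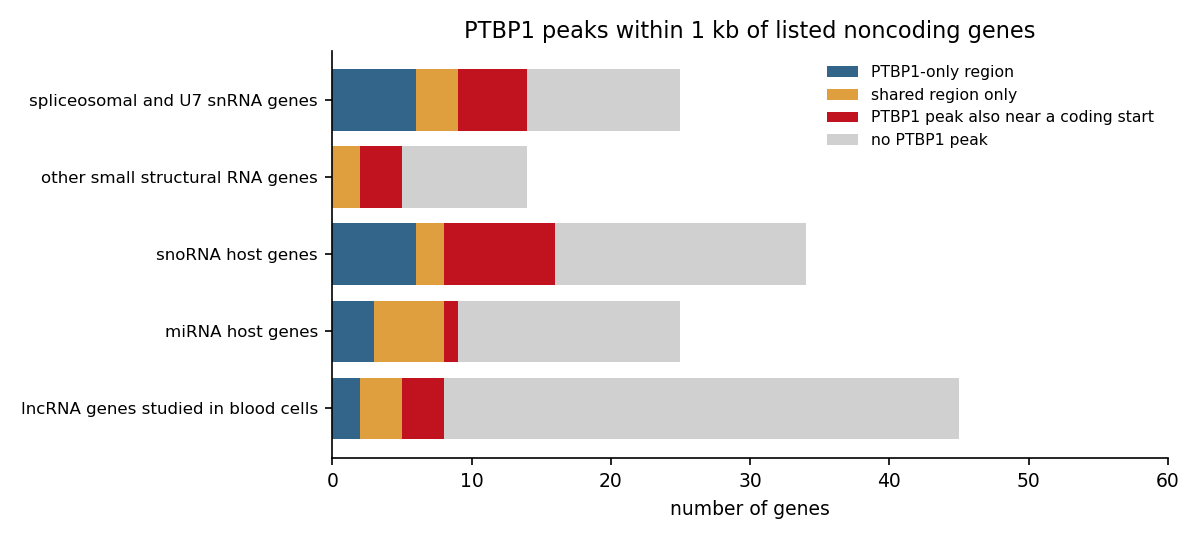
Number of annotated noncoding genes in 5 lists (x axis) by the kind of PTBP1 peak within 1 kb of the start. PTBP1-only regions (blue) occurred at 6 of 25 snRNA genes, 6 of 34 snoRNA host genes, 3 of 25 genes listed as miRNA hosts (DLEU1 among the 3), 2 of 45 blood lncRNA genes and 0 of 14 other small structural RNA genes, against 1.18% of all noncoding genes. Among lncRNA genes, the class of the snoRNA host, miRNA host and blood lists, the share was 1.64%.

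At miRNA hairpins, the summit lay inside a protein-coding gene in 50 of 65 regions, of which 34 were in an intron. After MIR612, the highest fold enrichments were 27.3 at MIR3187 (chr19:812751-817800) and 24.998 at MIR1914 (chr20:63941136-63941978). The MIR3187 region began 424 bases past the end of the PTBP1 gene, and its summit lay in exon 8 of PLPPR3. The MIR4745 region (chr19:802426-807159), with a fold enrichment of 16.9 over 4734 bases, had its summit in intron 9 of PTBP1 itself. In all, 5 PTBP1 peaks covered 70.1% of the PTBP1 gene, with fold enrichments of 9.30 to 110.5. Of these, 4 overlapped no RUNX1 peak, and 1 met the rule. For the families whose seeds are shown above, values were lower. The region over MIRLET7B had a fold enrichment of 12.2 and the neighbouring region, 325 bases before MIRLET7A3, 9.88. Values were 10.46 each at MIR130B and MIR301B, and 8.14 each at MIR200B and MIR200A and at MIR141 and MIR200C. The last values correspond to 13 fragments at each summit.

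The question of how the regions sat relative to the annotated start was addressed with the region borders and the summit. A noncoding start base lay inside 200 of the 431 regions (46.4%, 41.7 to 51.1). The share was 67.7% (62.9 to 72.2) in shared regions at noncoding starts, and 66.4% (64.1 to 68.7) of PTBP1-only regions at coding starts contained the coding start they were near. These shares are given without a test, because the distance to the start took part in the selection. Median widths were 580 bases here, 870 bases in shared regions and 527 bases at coding starts, and the part of width in these shares was not tested. The summit was a median of 364 bases from the nearest start (quartiles 139 and 814.5), against 264 in shared regions, and 144 summits (33.4%, 29.1 to 38.0) lay within 200 bases of it, against 41.4% (36.6 to 46.4). It was upstream of the start in 242 regions.

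**Figure D4:**
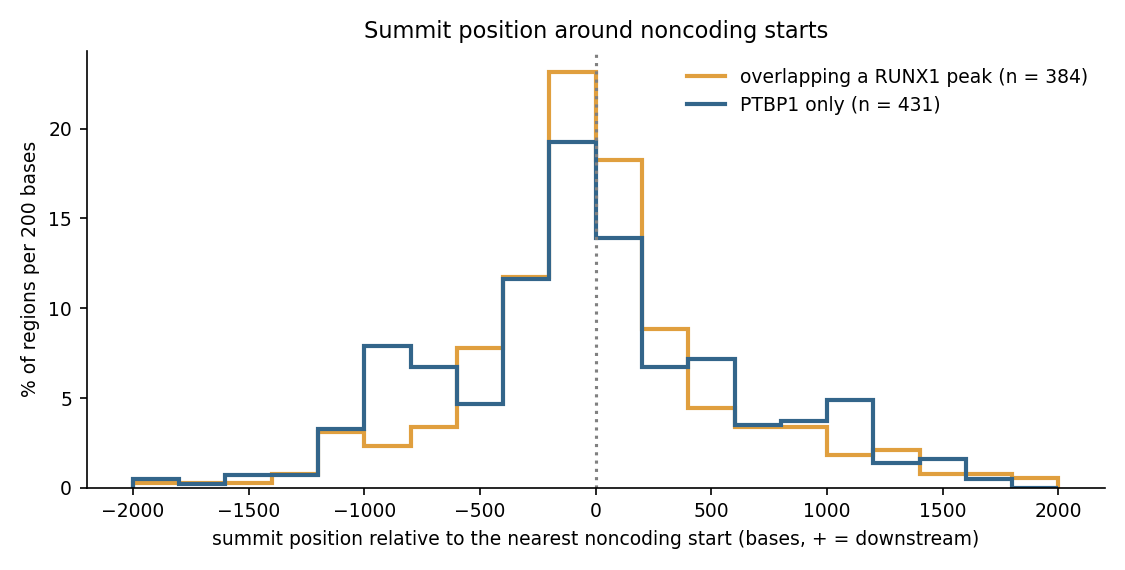
Position of the PTBP1 summit relative to the nearest noncoding start on the strand of the gene, as the percentage of regions in bins of 200 bases, for the 431 PTBP1-only regions (blue) and the 384 shared regions (orange). Summits beyond 2 kb (5 and 10 regions) are not drawn, and both curves peak in the bins beside the start, at 19.3% and 23.2% just upstream.

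The surroundings also included protein-coding genes. The summit lay inside one in 240 regions (55.7%, 51.0 to 60.3), with 138 in introns, 36 in coding exons, 33 in UTRs of the canonical transcript and 33 elsewhere in the gene. In shared regions the share was 44.8% (39.9 to 49.8). The median distance from the summit to the nearest protein-coding gene start was 10329 bases, and 118 summits were within 5 kb. An alternative protein-coding transcript began within 1 kb of 101 of the 431 regions (23.4%, 19.7 to 27.7), because the rule used 1 start per gene. Without them 330 regions were left.

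The DNA at the summit was compared with that of 3 other classes. A window of 100 bases either side of the summit was called CpG-rich when its GC content was at least 50% and its ratio of observed to expected CpG at least 0.6. This applied to 152 of 431 regions (35.3%, 30.9 to 39.9). The share was 41.6 points lower than the 76.9% of the 1622 PTBP1-only regions at coding starts (two-sided Fisher's exact test, Benjamini-Hochberg adjusted p = 4.29e-56 over 17 tests) and 26.7 points lower than the 61.98% of the 384 shared regions (Fisher's exact test, adjusted p = 1.37e-13). It was 19.2 points higher than the 16.03% of the 2707 PTBP1-only regions away from any start (Fisher's exact test, adjusted p = 7.67e-18). The median GC content differed less, with 63.7%, 67.2%, 65.2% and 62.2% in the same order of classes, whereas the median ratio of observed to expected CpG was 0.465, 0.806, 0.697 and 0.330. The classes were defined by distance to annotated starts, and starts without a PTBP1 peak were not examined. The part of the kind of start in these differences and in the motif differences below was therefore not tested.

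Within the set, 96 of the 200 regions that contained a start were CpG-rich (48.0%), against 56 of the other 231 (24.2%). The CpG-rich share was 39.3% at lncRNA starts, 45.9% at pseudogenes and 20% at miRNA hairpins. At the named starts the classes were mixed: DANCR, SNHG16, SNHG15, SNHG25, MALAT1 and both MIR17HG regions were CpG-rich, while RNU4-2, RNU5A-1, RNU1-2 and SNHG32 were not. All 3 regions at 5S ribosomal RNA genes were.

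GC boxes, the sites of SP-family factors, lay within 50 bases of 111 summits (25.8%, 21.9 to 30.1). The share was 11.4 points below that at coding starts (37.1%, Fisher's exact test, adjusted p = 2.10e-05) and 10.9 points above that away from starts (14.8%, Fisher's exact test, adjusted p = 2.09e-07). It was 7.58 points below that of shared regions (33.3%, Fisher's exact test, adjusted p = 0.0320), a difference that did not pass the threshold of 0.05 under 5 of 8 alternatives. The ETS core was at 23 summits (5.34%, 3.58 to 7.88), against 8.88% at coding starts (adjusted p = 0.0290 by Fisher's exact test, not passed under 6 of 8 alternatives), 5.73% in shared regions (adjusted p = 0.878) and 2.81% away from starts (adjusted p = 0.0201).

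Motifs linked to the 2 profiled proteins were searched in the same way. A RUNX motif lay within 50 bases of 44 summits (10.2%, 7.69 to 13.4), 4.78 points more than at coding starts (5.43%, Fisher's exact test, adjusted p = 0.00123). With lncRNA starts alone this difference was 3.36 points and did not pass. It differed by 2.92 points from shared regions (7.29%, Fisher's exact test, adjusted p = 0.211) and by 1.27 points from regions away from starts (8.94%, adjusted p = 0.443). A run of at least 12 pyrimidines, the DNA counterpart of sequences bound by PTBP1 in RNA, was at 71 summits (16.5%, 13.3 to 20.3), against 12.3% at coding starts (Fisher's exact test, adjusted p = 0.0430), 14.1% in shared regions (adjusted p = 0.432) and 13.6% away from starts (adjusted p = 0.153). The difference from coding starts, 4.14 points, did not pass under 5 of 8 alternatives. Neighbouring peaks are not independent, so that these p-values describe the 2 lists only.

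**Figure D5:**
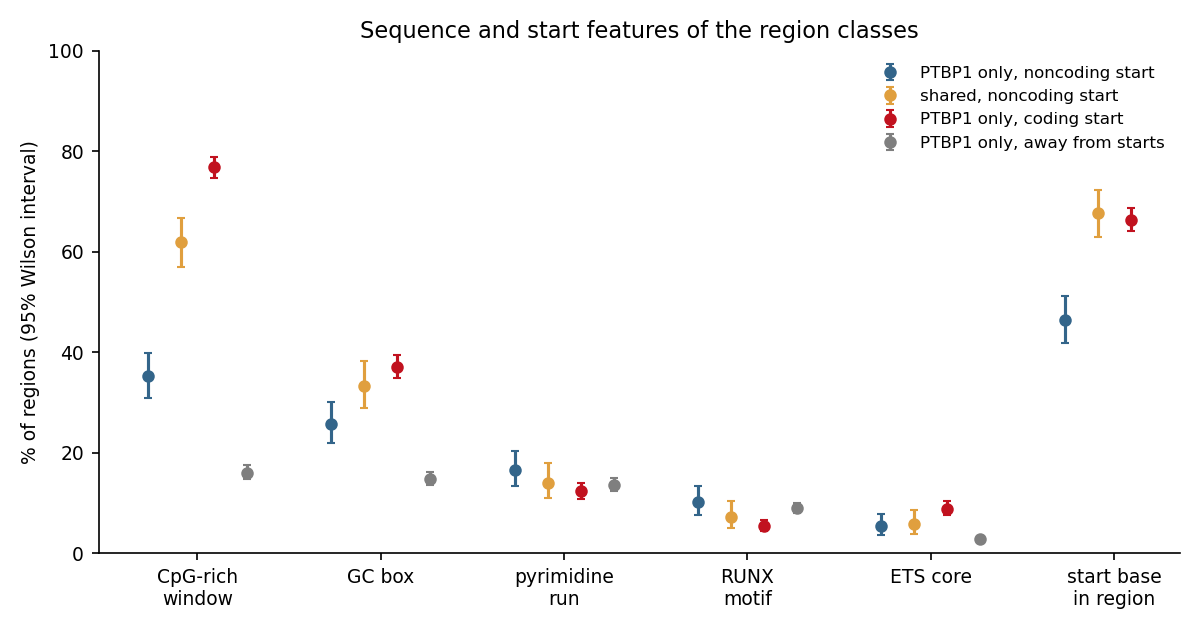
Percentage of regions with each feature in 4 classes, with 95% Wilson intervals: PTBP1-only at noncoding starts (blue), shared at noncoding starts (orange), PTBP1-only at coding starts (red) and PTBP1-only away from starts (gray, not defined for the start base). The blue CpG-rich share, 35.3%, lies between the gray 16.03% and the orange 61.98%, the RUNX motif shares run from 5.43% to 10.2%, and the pyrimidine run shares from 12.3% to 16.5%.

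The regions were unevenly spread over the genome. Chromosomes 1, 17, 19 and 16 held 63, 62, 47 and 44 of them, or 50.1% together, against 46.7% of all PTBP1-only peaks. Chromosomes 10 and 18 held 3 each, and chromosome Y held 0. Joining regions at most 50 kb apart gave 335 groups, of which 278 were single regions and 22 held 3 or more regions, 83 in all. The 1 Mb from 81 to 82 Mb of chromosome 17 held 22 regions among 151 PTBP1 peaks, with fold enrichments from 5.77 to 20.3, and 40 to 41 Mb of chromosome 1 held 11 among 137. Windows of 1 Mb with at least 50 PTBP1 peaks contained 140 of the 431 regions (32.5%), against 9.64% of shared regions, 14.1% of PTBP1-only regions at coding starts and 40.9% of those away from starts. In these dense windows 15.7% of the regions were CpG-rich, against 44.7% of the 291 elsewhere. Without the dense windows the CpG-rich share was still 17.9 points below that of shared regions and 35.3 points below that of coding starts.

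The distance to RUNX1 peaks also varied, although its lower end was set by the selection. The median gap to the nearest RUNX1 peak was 14535 bases. A gap of at most 1 kb was found at 31 regions and of at most 10 kb at 178, while 47 regions were more than 100 kb away. The closest RUNX1 peak was 113 bases from a region at ENSG00000267141 on chromosome 19. At the limits of the rule, the region farthest from its noncoding start was 983 bases away (ENSG00000267379, fold enrichment 9.88), and the closest PTBP1-only peak left out was 1001 bases away (ENSG00000290068, 8.72). The region nearest to a coding start was 1006 bases from it (MIR6743, 8.14), and the nearest left out was 990 bases away (MIR6722, 9.88). The lowest fold enrichment, 4.18, was at ADPGK-AS1 on chromosome 15.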

How the data were processed

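Chromatin of MOLM-13 cells was profiled by CUT&Tag and CUT&RUN. Read pairs were mapped by the authors to hg38 (Bowtie2), filtered for mapping quality and duplicates, and passed to MACS3 for peak calling. Their processing notes also name bedtools 2.30.0. Each of the 2 deposited lists is labelled by target alone. CUT&Tag was assumed as the assay, and whether replicates were pooled is not given in the sources used here. For each peak the deposited lists give coordinates, a fold enrichment (the ratio of pileup to background, each with 1 added), −log10 p-values and q-values, and a score, found in every row (9370 PTBP1, 7688 RUNX1) to be the −log10 q-value times 10, truncated. These are values of the authors' caller for 1 list each. Fragment pileup and background were solved from the deposited fold enrichment and −log10 p-value, with a largest difference of 0.00134. Library totals were not analysed here, and depth is known only as summit pileup.

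Starts were the 5-prime ends of GENCODE version 44 genes on chromosomes 1 to 22, X and Y. A peak was at a start when it came within 1000 bases of it, and 1 base sufficed for overlap with a RUNX1 peak. Coordinates are 1-based. Shares were compared with two-sided Fisher's exact tests, adjusted by Benjamini-Hochberg over 17 tests. These include 2 tests on the start base, which are not printed. Both passed and can lower the other adjusted p-values, and an adjustment without them was not run. Start base, fold enrichment, width and the gap to RUNX1 peaks are given as descriptions, because the selection used them or the distance to the start. Alternatives covered the start window, the coding start, the −log10 q threshold, dense 1 Mb windows, 1 peak per 100 kb, the biotype, the overlap rule and the summit window. The regions, gene lists and tests were chosen with earlier results of these data known. Named regions were the 10 of highest fold enrichment, the 5 widest, the 2 highest of each class with at least 5 regions, those at listed genes, and those at the limits of the rule. NEAT1, MIR1914, MIR4745, RNA5S6, RNA5S13, RNA5SP18 and the miRNA seed pairs were named after their values had been seen. Mature miRNA sequences came from RefSeq. The distance search, the motif search and the tests were tested on simulated data. The software was scipy 1.17.1, pysam 0.24.0, pandas 2.3.3, numpy 2.4.6 and matplotlib 3.10.9 under Python 3.11.15.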

Additional observations from a re-analysis of the deposited data

How the results depend on the processing

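No paired analysis was possible because the lists carry no replicates. Of 120 recomputed differences between classes (15 tests), 103 kept their side of the threshold, with the same sign wherever either passed. The 3 differences in CpG-rich share, the GC box against coding starts and away from starts and the ETS core away from starts passed in all their alternatives. The RUNX motif against coding starts did not pass with lncRNA starts only (3.36 points). The pyrimidine run against coding starts did not pass with doubled windows (1.45 points), −log10 q of at least 10 (3.32), coding transcript starts (4.44), lncRNA starts only (3.21) or no RUNX1 peak within 1 kb (3.78). The GC box against shared regions did not pass with −log10 q of at least 10 (-7.12 points), without dense windows (-4.62), with coding transcript starts (-5.42), the strongest peak per 100 kb (-7.26) or lncRNA starts only (-7.43). The ETS core against coding starts did not pass without dense windows (-2.71 points), with coding transcript starts (-2.98), the strongest peak per 100 kb (-2.29), start base in the peak (-3.96), lncRNA starts only (-2.46) or no RUNX1 peak within 1 kb (-3.35). In settings that drop regions fewer enter each test, and other causes were not tested. Requiring the start base in the peak, with the coding limit kept at 1 kb, left 200 regions, with a median fold enrichment of 11.05. The differences between classes under that setting used another set, which left out only peaks that contained a coding start. The other 8 definitions gave 291 to 540 regions and medians of 9.88 to 10.46. A comparison of repeat-masked summits was not run, because the genome used here does not mark repeats. The lowest summit held 11 fragments, and how far depth or the authors' significance threshold sets this floor was not tested.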
